A study of Homo sapiens with 16 samples.

Results

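Collagen is folded and trimmed by a small set of dedicated proteins, and 10 genes for such proteins were followed here through heat shock and replicative senescence. They were SERPINH1, P4HA1, P4HA2, P4HA3, PLOD1, PLOD2, PLOD3, CRTAP, PPIB and BMP1, taken by symbol from both tables of the study. All 10 were found, among 23597 genes listed for RNA-seq and 19201 listed for ribosome footprints, and all 10 passed the filter on low counts in both assays. The cells were WI-38, a fibroblast line from human lung whose capacity to divide is finite, so that senescence here is a matter of passage in 1 line. The young groups were taken at passage 24, the senescent groups at passage 36. Each was either left as Control or given a heat shock of 2 h at 44 °C; the labels write 440C, read here as a lost degree sign. Every group, controls included, had been deprived of serum for 24 h and returned to full medium for another 24 h before the experiment. RNA-seq measured transcripts, and Ribo-seq measured footprints, the stretches of mRNA covered by ribosomes. Each assay had 4 groups of 2 libraries, 16 libraries in all. The labels number the replicates without saying whether they were separate cultures, so p-values measure only the spread between these libraries, which may be technical.

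Fibrillar collagen chains are made on ribosomes at the endoplasmic reticulum, and 3 of them wind into a triple helix before they leave it. Prolyl 4-hydroxylases and lysyl hydroxylases modify the chains before they wind, a complex that includes CRTAP and the prolyl isomerase PPIB acts on prolines, and SERPINH1, the chaperone also called HSP47, binds the helix and is known as a heat shock protein. BMP1 later cuts the C-terminal propeptide outside the cell. Fibroblasts make type I collagen in large amounts. Inherited loss of several of these genes is known to cause brittle bone disease.

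Library totals ran from 26434514 to 37126871 counts in RNA-seq and from 4581141 to 9104077 in Ribo-seq, and the 10 genes together took 0.34% to 0.651% and 0.356% to 0.602% of them. Levels are given in TPM, a unit the authors scaled by gene length and library. All 8 fibroblast markers reached 1 TPM, and their sum was 9930 to 15100 TPM in RNA. Of 5 epithelial markers only KRT8, KRT18 and KRT19 reached 1 TPM, while EPCAM stayed at or below 0.43 and CDH1 at or below 0.05 TPM in RNA. Their sum was 133 to 147 TPM in young and 188 to 224 TPM in senescent RNA libraries, and its part in the differences between young and senescent cells was not tested. The 3 endothelial and 3 immune markers summed to at most 0.34 and 0.83 TPM in RNA, with CDH5 at 0 in every library of both assays. Of the footprint groups, young control stood apart: its 2 libraries differed with a chi-square per degree of freedom of 1.73, against 17.2 to 38.7 in the other 3. Footprint calls that ended when these libraries were counted as 1 sample are given below with that value.

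In control cells the 10 genes spanned a wide range of RNA. PPIB was highest, at 1824 and 2041 TPM in young control (replicates 1 and 2), followed by SERPINH1 at 741 and 739 TPM and PLOD1 at 371 and 379 TPM. P4HA2, P4HA1 and PLOD3 came next, between 118 and 180 TPM, and neighbours among them overlapped between libraries. PLOD2, CRTAP and BMP1, from 46.5 to 93.6 TPM, likewise overlapped with their neighbours, and P4HA3 was lowest at 13.3 and 17.3 TPM. The order of the 10 means was the same in senescent control. After heat shock SERPINH1 passed PPIB in young cells, with no overlap between the libraries of the 2 genes, whereas in senescent cells their libraries overlapped.

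In footprints the order differed, with PPIB and SERPINH1 again highest in control cells, at 1769 and 1876 TPM and at 562 and 565 TPM in young control. CRTAP stood at 138 and 140 TPM there, the fifth of the 10, against the eighth in RNA, and PLOD1 at 146 and 154 TPM was close to P4HA1. Footprint TPM per RNA TPM in young control ran from 0.399 for PLOD1 to 2.12 for CRTAP, around a median of 0.863 over 10870 genes.

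**Figure D1:**
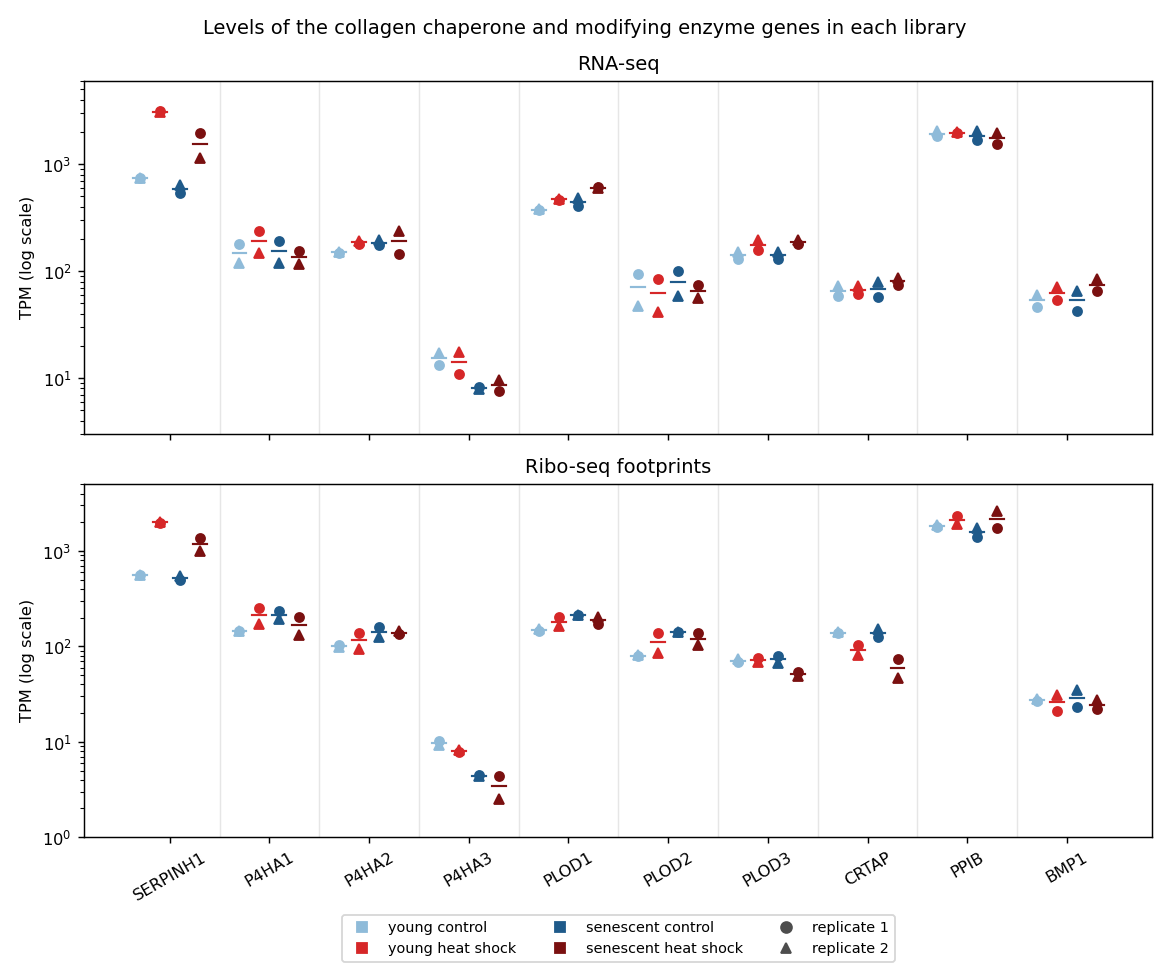
TPM (log scale) of the 10 genes in every RNA-seq library (top) and every Ribo-seq library (bottom); circles are replicate 1, triangles replicate 2, and short lines the mean of the 2 libraries of a group. SERPINH1 stands at 1147 to 3127 TPM in the heat shocked RNA libraries against 538 to 741 TPM in control, and CRTAP footprints are lowest in senescent heat shock, at 46.5 and 73.6 TPM.

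SERPINH1, the collagen-specific chaperone of the endoplasmic reticulum, was the 1 member whose RNA and footprints rose on heat shock. Its RNA stood at 741 and 739 TPM in young control and at 3127 and 3065 TPM in young heat shock. In senescent cells it stood at 538 and 643 TPM in control and at 1949 and 1147 TPM in heat shock. Heat shocked libraries were above control libraries in both states, and replicate 2 of senescent heat shock was the lowest of the 4 heated libraries. In these bulk samples fewer cells expressing a gene and less RNA per cell cannot be told apart. The RNA rose by 2.33 ± 0.21 (log2 change ± SE, 2 libraries against 2; a 5.02-fold change) in young cells, with an adjusted p of 0.00317 by edgeR's quasi-likelihood test over 13177 genes. In senescent cells it rose by 1.56 ± 0.21, or 2.96-fold (adjusted p = 0.023 by edgeR). These changes were higher than those of 99.2% and 99% of all genes tested. The senescent call was lost when senescent control replicate 1 (adjusted p = 0.242), senescent control replicate 2 (0.12) or senescent heat replicate 1 (0.0586) was left out, with scaling by library size only (0.0524) and with limma on log2(TPM + 1) and log2(TPM + 0.1) (0.0524 and 0.0556); with the replicate number as a block it held at 0.00337.

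The footprints of SERPINH1 followed. They stood at 562 and 565 TPM in young control and at 1971 and 2033 TPM in young heat shock. Senescent libraries held 497 and 540 TPM in control and 1367 and 1002 TPM in heat shock. Again no heated library reached down to a control library, and the 2 senescent heated libraries lay below both young ones. The footprint rise was 2.02 ± 0.17 in young cells, 4.06-fold (edgeR adjusted p = 0.000981 over 11288 genes), and 1.49 ± 0.17 in senescent cells, 2.82-fold (edgeR adjusted p = 0.00341), and both calls held under all 18 alternatives run in each. Translational efficiency, the footprint change minus the RNA change in 1 fit of both assays, differed from 0 by -0.31 ± 0.28 in young and -0.09 ± 0.28 in senescent cells (edgeR adjusted p = 1 and 0.894), so a rise in efficiency beyond 0.28 in young and 0.50 in senescent cells lies outside the 95% intervals.

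Whether the response differed between senescent and young cells was tested as a difference of responses. For SERPINH1 RNA it was -0.76 ± 0.30 (senescent minus young; unadjusted p = 0.0345, edgeR adjusted p = 1), and for footprints -0.53 ± 0.24 (edgeR adjusted p = 0.834). Neither passed, nor did any other member, and 0% of the 13177 genes in RNA and 0% of the 11288 in footprints were called by edgeR. At an unadjusted p under 0.05 there were 119 genes in RNA, SERPINH1 the 1 member among them, and 554 in footprints, P4HA1 the 1 member among them. DESeq2 called 3 and 10 genes, none of them a member. In efficiency 0.00896% of genes were called. At an unadjusted p under 0.05 there were 0 members, against 255 of all genes. DESeq2 called 4 genes in efficiency, none of them a member. The fitted difference was below 0 for 9 of 10 members in footprints, with a median of -0.37 against -0.01 over all genes, and for 5 of 10 in RNA.

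Because SERPINH1 is known as a target of HSF1, the heat shock transcription factor, its promoter is shown here with those of 2 cytosolic chaperone genes that also rose. Capitals mark the fixed letters of heat shock element units found by a search of both strands. The sequences are parts of RefSeq windows on GRCh38.p14, from 250 bases before to 50 after an annotated start. SERPINH1 is shown from 110 to 11 bases before its start (chr11:75562143-75562242, plus strand), HSPA1A from 118 to 87 (chr6:31815425-31815456, plus strand) and DNAJB1 from 89 to 28 (chr19:14518425-14518486, minus strand).
SERPINH1: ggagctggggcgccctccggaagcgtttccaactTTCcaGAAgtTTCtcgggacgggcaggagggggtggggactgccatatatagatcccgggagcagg
HSPA1A: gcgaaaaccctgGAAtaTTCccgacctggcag
DNAJB1: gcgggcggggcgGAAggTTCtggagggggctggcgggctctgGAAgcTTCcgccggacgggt

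The motifs searched were TTCNNGAA, GAANNTTC and a 3-unit motif of 13 bases in which TTCNNGAA and GAANNTTC share the GAA in the middle (or, on the other strand, its reverse complement). The 3-unit motif was present in 0.49% of all 35116 promoter windows. Windows were matched for 8 members (not P4HA3 and BMP1), and among these SERPINH1 alone held it, 76 to 64 bases before the first of its 2 annotated starts. The shorter GAANNTTC was in 6.77% of windows and, among members, in SERPINH1 and PLOD1, where it lay at bases 5 to 12 after the start. TTCNNGAA was in 7.74% of windows and, among members, in SERPINH1. In the stretches shown, HSPA1A and DNAJB1 held GAANNTTC and not the 3-unit motif. HSPB1, another heat shock gene, held GAANNTTC at -182 to -175 from its start. Matches for HSPA1B, HSPH1 and BAG3 are not given here, so the promoters shown do not stand for heat-induced genes in general. These are matches of letters, not measured binding. On heat shock HSPA1A RNA rose by 8.06 in young and 7.34 in senescent cells (log2; edgeR adjusted p = 5.07e-05 and 7.56e-05), and DNAJB1 RNA rose by 5.74 and 5.01 (edgeR adjusted p = 5.07e-05 and 0.000128). HSPA1A is nearly identical to HSPA1B, so the split of reads between the 2 is uncertain. Of a panel of 6 HSF1 targets, 6 rose in young RNA and 5 in senescent RNA, with medians of 5.42 and 4.38 on the log2 scale, against 0.01 and -0.01 over all genes tested. HSPA1B, an inducible Hsp70 like HSPA1A, rose by 8.24 and 7.92, the co-chaperone BAG3 rose by 5.11 and 3.74, and the small heat shock protein HSPB1 rose by 2.43 and 1.57 (log2, young and senescent RNA; the highest edgeR adjusted p was 0.0171, for HSPB1 in senescent cells). HSPH1, of the Hsp110 family, rose by 4.36 in young RNA (edgeR adjusted p = 0.0256) and did not pass in senescent RNA, at 3.50 (0.0725; 0.00034 with the replicate block). With 1 library left out the HSPH1 call was lost in 5 of 8 cases and the senescent HSPB1 call in 3 of 8, with an adjusted p of up to 0.199 and 0.192.

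The genes whose RNA varied most like SERPINH1 over the 8 libraries, by Pearson correlation of log2(TPM + 1) among 7208 genes with a mean of at least 10 TPM, were DNAJA4 (r = 0.995), a cytosolic co-chaperone, RNF216P1 (0.992), YWHAG (0.991) and AKAP17A, listed under 2 identifiers (0.99 for each). In footprints they were MICB, FTL, SRSF11, BBS10 and FMC1, with r from 0.981 to 0.989. Among the other members the highest was PLOD3 in RNA at 0.665 and PPIB in footprints at 0.534. The libraries share the heat shock contrast and their depth, and the correlations are descriptions.

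**Figure D2:**
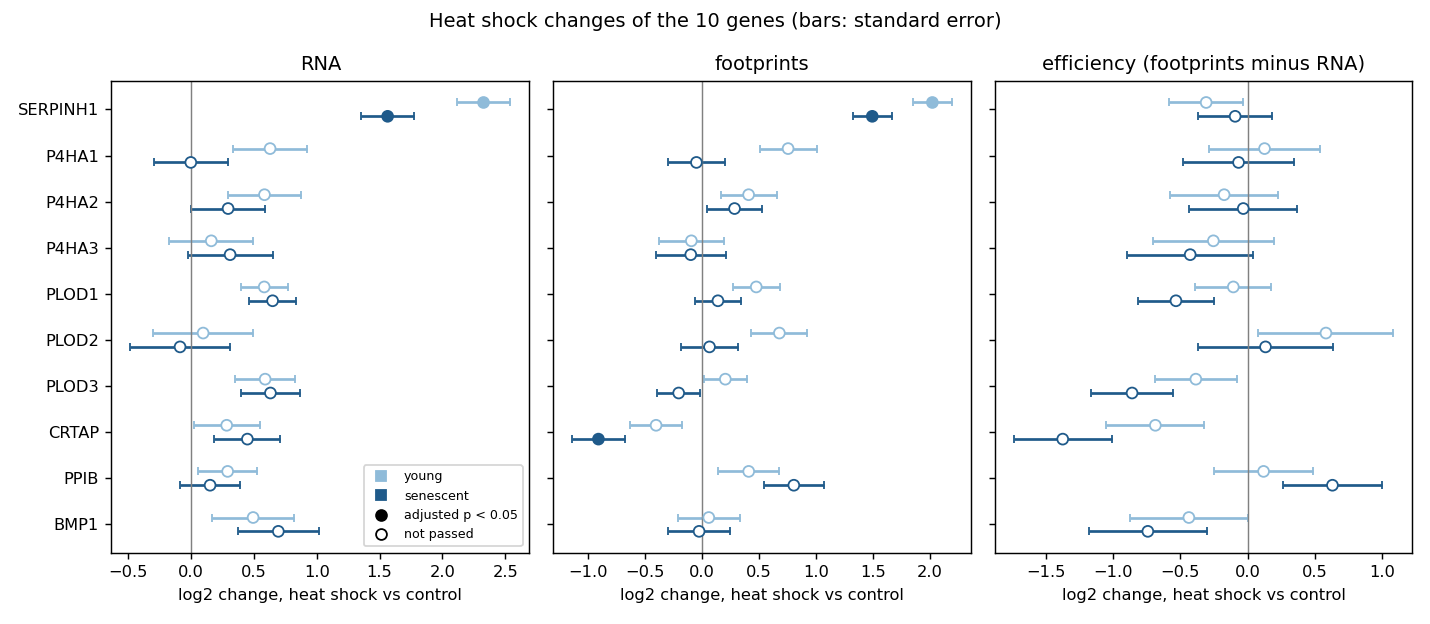
Log2 change on heat shock (x axis) of each gene in RNA, footprints and translational efficiency, in young (light) and senescent (dark) cells; bars are standard errors and filled points passed an adjusted p of 0.05 in edgeR. Filled points are SERPINH1 in RNA and footprints of both states and CRTAP in senescent footprints, at -0.91 ± 0.23.

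On heat shock 1 of 10 members passed in young RNA, where 1.14% of the 13177 genes tested were called, and 1 of 10 in senescent RNA, where 0.577% were; in both it was SERPINH1. Fitted RNA changes were above 0 for 10 of 10 members in young and 8 of 10 in senescent cells (7 and 7 with scaling by library size only), with medians of 0.54 and 0.38 against 0.01 and -0.01 over all genes. In TPM, heated libraries were all above control libraries for 4 members in young cells (SERPINH1, P4HA2, PLOD1 and PLOD3), against 6.67% of all genes with at least 1 TPM in 2 libraries, and for 3 in senescent cells (SERPINH1, PLOD1 and PLOD3), against 6.64%. They were all below for 0 members in either state, against 43.0% and 30.1% of genes. With the replicate number as a block, 5 of 10 passed in young cells, where 8.77% of all genes were then called, and 5 of 10 in senescent cells, where 6.28% were. Scaling by library size only moved the median of all genes to -0.27 in young and -0.23 in senescent RNA, and those of the members to 0.25 and 0.14, so each change is relative to the bulk of genes. The share of calls that were higher then went from 58.7% to 30.9% in young and from 63.2% to 43.6% in senescent RNA.

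The prolyl 4-hydroxylases are tetramers of a catalytic alpha subunit, made from P4HA1, P4HA2 or P4HA3, and the shared beta subunit P4HB. P4HA1 RNA stood at 180 and 118 TPM in young control, 235 and 149 in young heat shock, 192 and 119 in senescent control and 153 and 117 in heated senescent cells. Replicate 1 was the higher in all 4 groups, and groups overlapped. Its young heat change of 0.63 ± 0.29 had an adjusted p of 0.564 by edgeR and 0.0326 with the replicate block, and in senescent cells the change was -0.00 ± 0.29 (edgeR adjusted p = 1). P4HA1 footprints stood at 144 and 144 TPM in young control and at 252 and 174 TPM in young heat shock, which did not overlap, and changed by 0.76 ± 0.25 (edgeR adjusted p = 0.199). In senescent cells they were 235 and 192 TPM in control and 205 and 132 in heat shock, overlapping.

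P4HA2 RNA lay at 149 and 151 TPM in young control, 181 and 190 in young heat shock, 175 and 195 in senescent control and 146 and 237 in heated senescent cells. The young groups did not overlap and the senescent groups did, and neither change, 0.58 ± 0.29 and 0.29 ± 0.29, passed (edgeR adjusted p = 0.61 and 0.881). Its footprints stood at 102 and 99.4 TPM in young control, 139 and 94.2 in young heat shock, 159 and 125 in senescent control and 135 and 144 in heated senescent cells, and control and heated libraries overlapped in both states. The footprint changes were 0.41 ± 0.24 and 0.29 ± 0.24 (edgeR adjusted p = 0.45 and 0.472). P4HA1 and P4HA2 divided most of the alpha subunit TPM between them. In RNA P4HA1 made up 32.2% to 55.1% and P4HA2 42.4% to 65.2% of the sum of the 3 subunits, and P4HA1 was the larger in replicate 1 and P4HA2 in replicate 2 of every group. In footprints P4HA1 was the larger in 7 of 8 libraries, with 47.5% to 63.1%. P4HB, the beta subunit and also a protein disulfide isomerase, stood at 935 to 1611 TPM in RNA, from 2.41 to 4.43 times the sum of the alpha subunits. Its RNA changes on heat, 0.37 ± 0.28 in young and 0.48 ± 0.28 in senescent cells, did not pass (edgeR adjusted p = 0.84 and 0.765).

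The lysyl hydroxylases PLOD1, PLOD2 and PLOD3 act on different parts of the chain, with PLOD2 known for the telopeptides, the short non-helical ends used in cross-links. PLOD1 RNA stood at 371 and 379 TPM in young control, 463 and 474 in young heat shock, 403 and 484 in senescent control and 611 and 595 in heated senescent cells. Heated libraries were above control libraries in both states. The changes were 0.58 ± 0.19 in young and 0.65 ± 0.19 in senescent cells, with edgeR adjusted p of 0.28 and 0.289, and 0.0171 and 0.0151 with the replicate block.

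PLOD3, which also transfers sugars to hydroxylysine, followed the same pattern in RNA. It stood at 130 and 151 TPM in young control, 157 and 195 in young heat shock, 129 and 152 in senescent control and 178 and 197 in heated senescent cells. The groups did not overlap in either state. The changes were 0.59 ± 0.24 and 0.63 ± 0.24, with edgeR adjusted p of 0.434 and 0.493, and 0.0145 and 0.0157 with the replicate block. In footprints the order was another. PLOD3 footprints were 68.8 and 73.0 TPM in young control, 75.2 and 67.8 in young heat shock, 79.7 and 67.2 in senescent control and 53.3 and 49.4 in heated senescent cells. The last were the lowest of the 8, and the efficiency change in senescent cells was -0.86 ± 0.31 (edgeR adjusted p = 0.178). PLOD1 footprints stood at 146 and 154 TPM in young control, 201 and 163 in young heat shock, 214 and 212 in senescent control and 173 and 203 in heated senescent cells. Heated libraries were higher in young and lower in senescent cells, without overlap. After scaling between libraries the fitted changes were 0.48 ± 0.21 and 0.14 ± 0.21 (edgeR adjusted p = 0.303 and 0.683), and the efficiency change in senescent cells was -0.53 ± 0.28 (edgeR adjusted p = 0.36).

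In RNA PLOD2 was the member that differed most between replicates in both control groups and in young heat shock; in heated senescent cells P4HA2 (replicate 1 minus replicate 2 at -0.78 on the log2 scale) and SERPINH1 (0.68) differed more than PLOD2 (0.30). Its RNA stood at 93.6 and 47.2 TPM in young control, 83.7 and 41.8 in young heat shock, 100 and 58.7 in senescent control and 73.7 and 56.3 in heated senescent cells. Replicate 1 was higher in all 4 groups. The heat changes of 0.10 ± 0.40 and -0.09 ± 0.40 did not pass (edgeR adjusted p = 0.988 and 0.987). These standard errors are from the fit without the replicate block, so they include the difference between replicates. PLOD2 footprints stood at 78.8 and 81.5 TPM in young control, 138 and 85.2 in young heat shock, 142 and 141 in senescent control and 139 and 102 in heated senescent cells. Young control libraries were the lowest of the 8. The changes were 0.68 ± 0.25 in young and 0.07 ± 0.25 in senescent cells (edgeR adjusted p = 0.24 and 0.88). PLOD2 and P4HA1 have the lowest GC content of the 10, 35.9% and 40.2% against a median of 49.6% over 12216 genes, and were the 2 members with replicate 1 higher in 4 of 4 RNA groups. P4HA2, PLOD1, PLOD3, CRTAP, PPIB and BMP1, with a GC content of 49.6% to 61.1%, had replicate 1 lower in 4 of 4. SERPINH1 and P4HA3, at 62.8% and 52.3%, had replicate 1 higher in 2 and in 1 of the 4 groups. The part of GC content in these replicate differences was not tested, and the calls with the GC trend of each library removed are given in the closing section. PLOD2 made up 5.89% to 15.9% of the lysyl hydroxylase TPM in RNA and 26.5% to 38.0% in footprints. The genes most like PLOD2 over the 8 RNA libraries were ACTG2 (r = 0.984), AOX1, EFL1, BNIP3 and PAIP2 (0.955), as descriptions over libraries that share these replicate differences. P4HA1 stood at 0.733 with PLOD2 in RNA and at 0.812 in footprints.

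CRTAP, a helper of the prolyl 3-hydroxylase complex, was the member whose footprints fell on heat shock. They stood at 138 and 140 TPM in young control and at 103 and 81.0 TPM in young heat shock. In senescent cells they went from 126 and 150 TPM in control to 73.6 and 46.5 TPM in heat shock. Heated libraries lay below control libraries in both states, lowest in senescent cells. The senescent change was -0.91 ± 0.23 (edgeR adjusted p = 0.047) and the young change -0.40 ± 0.23 (edgeR adjusted p = 0.435); the difference of the responses, -0.51 ± 0.33, did not pass (edgeR adjusted p = 0.834). The senescent call was lost with the young control footprint libraries as 1 sample or with either of them left out (adjusted p = 0.122 for each), and without senescent control replicate 1 (0.105), senescent control replicate 2 (0.136) or senescent heat replicate 2 (0.145).

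CRTAP RNA showed no such gap between control and heated libraries. It stood at 58.7 and 72.7 TPM in young control, 61.3 and 72.0 in young heat shock, 57.8 and 78.3 in senescent control and 74.7 and 85.4 in heated senescent cells, and control and heated groups overlapped in both states. The senescent RNA change was 0.45 ± 0.26 (edgeR adjusted p = 0.76; 0.0478 with the replicate block). CRTAP footprint TPM per RNA TPM was 2.12 in young control, above 89.7% of 10870 genes with at least 1 TPM in both assays, and 2.03 in senescent control, above 84.9% of 10674. It was 1.38 in young heat shock, above 69.5% of genes, and 0.75 in senescent heat shock, above 39.5%. The efficiency change was -1.37 ± 0.36 in senescent cells, with an adjusted p of 0.0688 by edgeR, above the threshold, and 0.0148 by DESeq2; over the alternatives it ranged from 0.00414 to 0.125, and from 0.0323 to 0.309 with 1 of the 16 libraries left out. The call appeared without RNA senescent control replicate 2 (0.0422), RNA senescent heat replicate 1 (0.0427) or footprint senescent heat replicate 1 (0.0323). In young cells it was -0.69 ± 0.36 (edgeR adjusted p = 1).

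PPIB, the prolyl cis-trans isomerase cyclophilin B that joins CRTAP in that complex, was among the most abundant members in every group. Its footprints stood at 1769 and 1876 TPM in young control, 2323 and 1909 in young heat shock, 1406 and 1746 in senescent control and 1754 and 2611 in heated senescent cells. Heated libraries were above control libraries in both states, in senescent cells by a narrow margin. The senescent change of 0.81 ± 0.26 had an adjusted p of 0.0917 by edgeR, 0.0352 by DESeq2 and 0.016 by edgeR without senescent heat replicate 1. PPIB RNA stayed between 1551 and 2041 TPM in all 8 libraries, and its changes of 0.29 ± 0.24 and 0.15 ± 0.24 did not pass (edgeR adjusted p = 0.865 and 0.928).

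BMP1, the procollagen C-proteinase, had RNA at 46.5 and 59.9 TPM in young control, 53.4 and 71.3 in young heat shock, 42.5 and 65.5 in senescent control and 65.3 and 83.6 in heated senescent cells. Control and heated libraries overlapped. Its changes of 0.49 ± 0.32 and 0.69 ± 0.32 had edgeR adjusted p of 0.779 and 0.634, and 0.0369 and 0.013 with the replicate block. BMP1 footprints, 20.9 to 34.8 TPM over all libraries, gave changes of 0.06 ± 0.27 and -0.03 ± 0.27. P4HA3, the least abundant alpha subunit, changed on heat by 0.16 ± 0.33 and 0.31 ± 0.34 in RNA and by -0.09 ± 0.28 and -0.10 ± 0.31 in footprints (edgeR adjusted p of at least 0.856).

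In footprints 1 of 10 members passed on heat shock in young cells, where 1.15% of 11288 genes were called, and 2 of 10 in senescent cells, where 8.35% were. The median change of the members was 0.41 in young and 0.02 in senescent cells, against -0.01 and 0.03 over all genes. In TPM, heated libraries were all above control libraries for 5 members in young cells, against 16.4% of all genes with at least 1 TPM in 2 libraries, and all below for 2 (P4HA3 and CRTAP), against 42.7%. In senescent cells they were all above for 2 (SERPINH1 and PPIB), against 12.3%, and all below for 4 (PLOD1, PLOD2, PLOD3 and CRTAP), against 39.2%. Scaling by library size only moved the median of all genes to -0.28 and -0.25, and the share of calls that were higher went from 66.9% to 28.7% in young and from 37.3% to 12.8% in senescent footprints. On heat shock no member passed in efficiency by edgeR, where 0.0896% of 11166 genes were called in young and 2.43% in senescent cells. At an unadjusted p under 0.05 there were 0 and 2 members (PLOD3 and CRTAP), against 459 and 1865 of all genes. DESeq2 called 0 and 1 members, against 47 and 641 genes.

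Of 5 fibrillar collagen chains, the substrates of these proteins, 1 fell in young footprints and 4 fell in senescent footprints, and the others did not pass. Their median change was -0.45 in young and -2.03 in senescent footprints, against -0.01 and 0.03 over all genes. COL1A1 and COL1A2 encode the 2 chains of type I collagen. COL1A1 footprints fell by 2.08 in young and fell by 3.83 in senescent cells (log2, edgeR adjusted p = 0.00291 and 0.000335), and COL1A2 footprints fell by 2.03 in senescent cells (edgeR adjusted p = 0.00183) and changed by -0.72 in young cells (edgeR adjusted p = 0.138). DESeq2 called this young COL1A2 change, and edgeR with the replicate block did not (adjusted p = 0.0587). COL3A1, the chain of type III collagen, fell by 1.77 and COL5A1, a chain of type V, fell by 2.30 in senescent footprints (edgeR adjusted p = 0.00132 and 0.00418). These calls by edgeR without the block held with each library left out and with the young control footprint libraries as 1 sample. COL5A2, another chain of type V, lay the other way, at 0.85 ± 0.24 in young and 0.80 ± 0.24 in senescent footprints, and did not pass (edgeR adjusted p = 0.155 and 0.0778), while DESeq2 called it in both. The difference of the footprint responses (senescent minus young) did not pass for any of the 5 by edgeR (adjusted p of at least 0.834), while DESeq2 called it for all but COL5A2. In efficiency the same 4 chains fell on senescent heat shock, COL1A1 at -4.29, COL5A1 at -3.31, COL1A2 at -2.55 and COL3A1 at -2.25 (edgeR adjusted p of 0.00329 to 0.0214). The COL3A1 call was lost with 4 of the 16 libraries left out in turn, at up to 0.13. In young cells none of the 5 passed by edgeR, and 4 had an unadjusted p under 0.05. Changes there were -2.43 for COL1A1, -1.26 for COL1A2, -1.09 for COL3A1, -1.25 for COL5A1 and 0.26 for COL5A2. The replicate block called COL1A1 and COL1A2 (adjusted p = 0.00475 and 0.0333), where 0.51% of genes were called, and DESeq2 called COL1A1. The difference of the efficiency responses passed for 0 of 5 by edgeR or DESeq2. No chain passed on heat shock in RNA by edgeR without the block; with it COL5A1 did (0.80 in young and 1.00 in senescent cells, adjusted p = 0.0432 and 0.0215). The RNA changes were 0.35 and 0.44 for COL1A1 and 0.54 and 0.50 for COL1A2, and did not pass (edgeR adjusted p of at least 0.57). Over the mean of control and heat shock COL1A1 and COL3A1 footprints were lower in senescent than in young cells, at -0.83 and -0.65 (edgeR adjusted p = 0.0489 and 0.0441), calls lost with the young control footprint libraries as 1 sample (0.272 and 0.328) and with 6 and 7 of the 8 libraries left out in turn. In control alone the differences were 0.04 and 0.09 (edgeR adjusted p = 0.974 and 0.906). Under heat shock alone they were -1.70 and -1.40, with an edgeR adjusted p of 0.061 for each and 0.0158 with the block. Of the 5 chains DESeq2 called 0 in control and 4 under heat shock, all but COL5A2. In RNA over the mean the block called COL3A1 of the 5 chains (-0.45, adjusted p = 0.0392). The sum of COL1A1 and COL1A2 footprint TPM per SERPINH1 footprint TPM was 5.75 and 5.45 in young control, 0.539 and 0.541 in young heat shock, 6.83 and 6.76 in senescent control and 0.387 and 0.351 in heated senescent cells. Every heated library was below every control library. In RNA the ratio was 5.85 and 6.56 in young control, 1.33 and 2.02 in young heat shock, 6.48 and 7.98 in senescent control and 1.92 and 5.59 in heated senescent cells, also without overlap within a state, though senescent heat replicate 2 stood near the young control libraries.

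**Figure D3:**
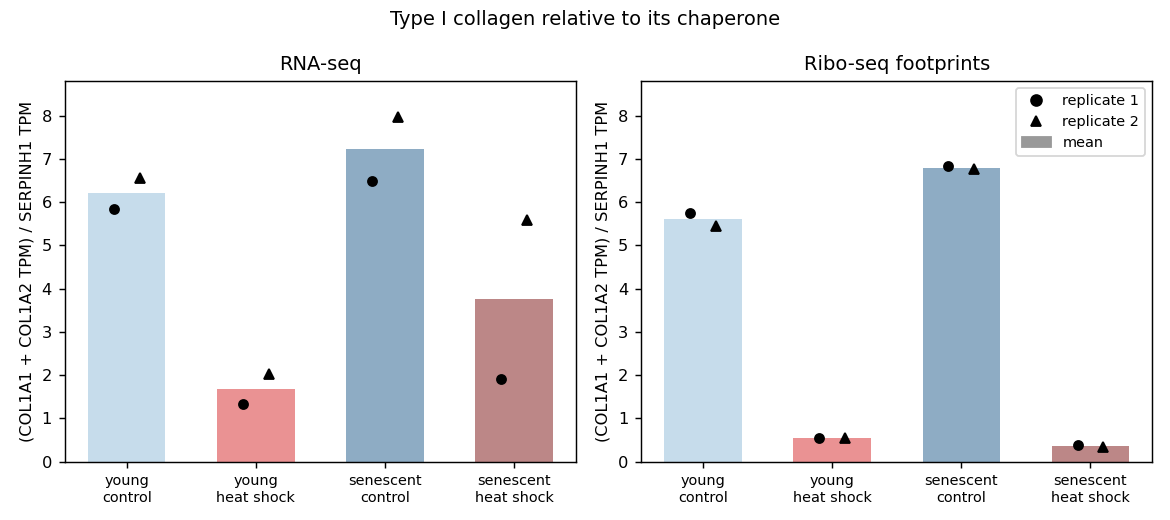
Sum of COL1A1 and COL1A2 TPM divided by SERPINH1 TPM in each library (circles replicate 1, triangles replicate 2; bars are means of 2 libraries), for RNA (left) and footprints (right). Heated footprint libraries lie between 0.351 and 0.541 and control footprint libraries between 5.45 and 6.83. SERPINH1, the divisor, rose on heat shock in both assays, while the collagen sum was lower on heat shock in footprints only.

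A further 28 genes of collagen maturation and export were listed, among them prolyl 3-hydroxylases, galactosyltransferases, propeptide proteinases and lysyl oxidases, of which 26 were tested in RNA and 24 in footprints. None passed on heat shock in RNA by edgeR in either state. Before adjustment 0 in young and 2 in senescent cells had p under 0.05, against 1333 and 1092 of 13177 genes. DESeq2 called 0 of the list in each. With the replicate block 0 of 26 passed in young and 2 of 26 in senescent cells, where 8.77% and 6.28% of all genes were called. The 2 that passed were P3H4 (-0.85, adjusted p = 0.00786) and FKBP14 (-0.62, 0.0305), a prolyl isomerase of the endoplasmic reticulum. In senescent footprints P3H4, a partner of the lysyl hydroxylases and prolyl 3-hydroxylases, fell by 1.23, and LOXL1, a lysyl oxidase that cross-links elastin and collagen, fell by 1.33 (log2, edgeR adjusted p = 0.0237 and 0.024). They were 2 of the 24 tested, near the share of all genes called there, 8.35%, and the other 22 did not pass. Both calls were lost with the young control footprint libraries as 1 sample (0.0712 and 0.0661), and with 4 and 5 of the 8 libraries left out in turn. In the same footprints DESeq2 called 4 of the list, also CREB3L1 and ADAMTS2, where it called 1515 of all genes. The replicate block called 5, with LOXL4 as the last, where it called 1667. The edgeR changes of CREB3L1, ADAMTS2 and LOXL4 were -0.67, -1.22 and -1.07. The median change of the list there was -0.15 against 0.03 over all genes. In young footprints none of the list passed, and DESeq2 called 0. At an unadjusted p under 0.05 there were 4 of the 24 tested, against 1808 of 11288 genes. Of a panel of 6 targets of the unfolded protein response, the signalling that answers misfolded protein in the endoplasmic reticulum, 2 rose in young RNA (HSPA5 by 1.78 and HERPUD1 by 2.71, edgeR adjusted p = 0.0464 and 0.0374) and 0 in senescent RNA, where 0 had an unadjusted p under 0.05 and DESeq2 called 0. With the replicate block 6 of the 6 passed in young RNA and 0 in senescent RNA; the difference of the RNA responses passed for 0 of 6 by edgeR, with and without the block, with 3 at an unadjusted p under 0.05, and DESeq2 called 0. The young RNA calls were lost with 7 of the 8 libraries left out in turn for HSPA5 and with 5 for HERPUD1 (adjusted p of up to 0.303 and 0.247). In footprints HSPA5 rose by 1.71 in young and 1.14 in senescent cells, and HERPUD1 rose by 2.60 and 1.40 (edgeR adjusted p = 0.0048, 0.0153, 0.013 and 0.0468). With the young control footprint libraries as 1 sample the adjusted p was 0.106 and 0.0499 for HSPA5 and 0.136 and 0.0872 for HERPUD1. Of 10 hypoxia response genes, to which P4HA1 and PLOD2 are commonly added, 9 were tested in RNA and 8 in footprints. None passed on heat in either assay by edgeR without the block, and DESeq2 called 0. At an unadjusted p under 0.05 there were 0 or 1 in each comparison. With the replicate block ADM fell in senescent RNA (-0.64, adjusted p = 0.048), where 6.28% of all genes were called.

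Between senescent and young cells P4HA3 had the largest fitted difference of the 10 in both assays, over the mean of control and heat shock. Its footprints stood at 10.3 and 9.16 TPM in young control, 7.81 and 8.16 in young heat shock, 4.44 and 4.39 in senescent control and 4.39 and 2.53 in heated senescent cells. All 4 senescent libraries were below all 4 young ones. Over the mean of control and heat shock P4HA3 footprints were lower by a log2 change of -1.16 ± 0.21, or 0.447-fold (edgeR adjusted p = 0.0467), 1 of 10 members where 0.877% of genes were called. The call was lost with scaling by library size only (0.0526), with limma at either pseudocount (0.0978 and 0.121), with the young control footprint libraries as 1 sample (0.286) and with any 1 library left out other than senescent heat replicate 1, where the adjusted p ran from 0.0657 to 0.348; the log2 change stayed between -1.33 and -1.01 throughout.

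P4HA3 RNA showed the same order. It stood at 13.3 and 17.3 TPM in young control, 10.9 and 17.4 in young heat shock, 8.27 and 7.97 in senescent control and 7.64 and 9.60 in heated senescent cells, again with no overlap between the 2 states. The mean difference was -0.70 ± 0.24 (edgeR adjusted p = 0.188; 0.0117 with the replicate block). P4HA3 made up 2.56% to 6.03% of alpha subunit RNA in young and 2.21% to 2.64% in senescent cells, and 1.96% to 4.02% and 0.908% to 1.36% of footprints.

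**Figure D4:**
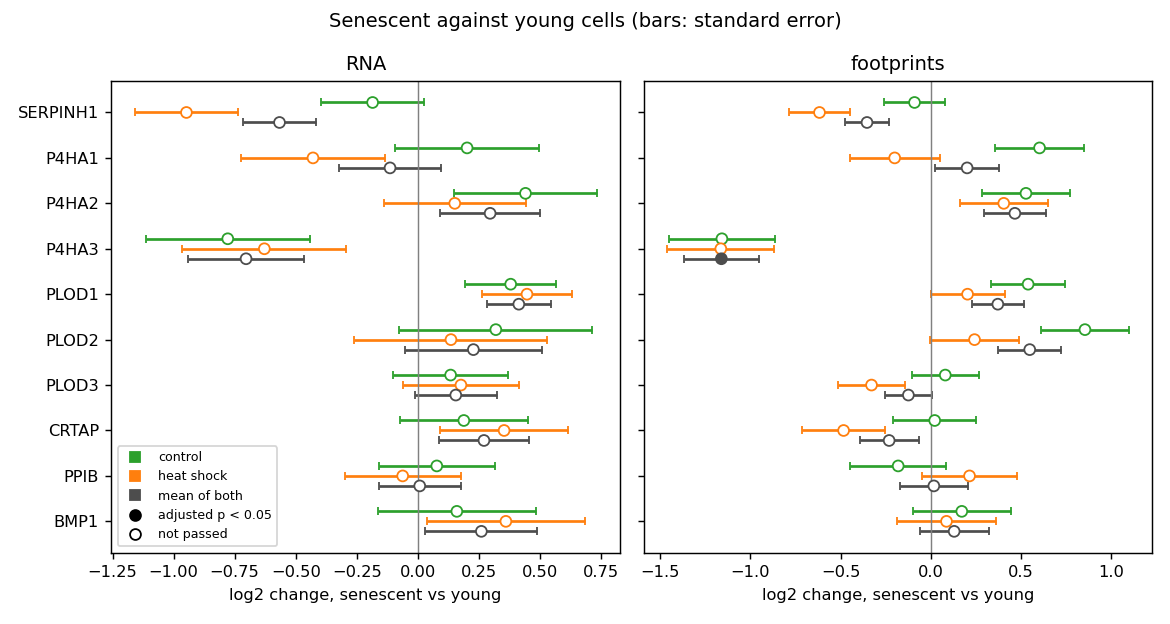
Log2 change of senescent against young cells (x axis) for each gene in RNA (left) and footprints (right), in control (green), under heat shock (orange) and as the mean of both (grey); bars are standard errors and the filled point passed an adjusted p of 0.05 in edgeR. The filled point is P4HA3 in footprints, at -1.16.

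No member passed between senescent and young cells in RNA by edgeR, in control (where 0.0379% of 13177 genes were called), under heat shock (0% called) or over the mean (1.48% called). At an unadjusted p under 0.05 there were 1, 2 and 3 members, against 949, 1520 and 2386 of all genes. DESeq2 called 0, 1 and 1 members, against 144, 245 and 767 genes. Under heat shock the member with the lowest p was SERPINH1, at 3127 and 3065 TPM in young and 1949 and 1147 TPM in senescent cells, which do not overlap. This difference was -0.95 ± 0.21, with an adjusted p of 0.19 by edgeR, 0.0115 by DESeq2 and 0.0198 with the replicate block, which called 2 members (also PLOD1, at 0.45 and 0.0366) where 13.7% of all genes were called. In control cells SERPINH1 differed by -0.19 ± 0.21 (edgeR adjusted p = 0.925). Over the mean of both states the block also called PLOD1 (0.41, adjusted p = 0.00931) and CRTAP (0.26, adjusted p = 0.0371) higher and SERPINH1 (-0.57, adjusted p = 0.0168) lower in senescent cells, with P4HA3 4 of 10 members where 27.3% of all genes were called.

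In TPM, senescent libraries were all above young ones for 2 members in RNA of control cells (against 10.5% of genes) and 2 under heat shock (20.8%), and all below for 2 (26.2%) and 2 (22.5%). In footprints they were all above for 4 members in control (22.1%) and 0 under heat shock (12.5%), and all below for 3 (28.4%) and 4 (26.3%).

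In footprints of control cells none of the 10 passed by edgeR (0% of genes called), and DESeq2 called 0 members. At an unadjusted p under 0.05 there were 4 members, against 885 of 11288 genes. PLOD2 was 1 of the 4, at 78.8 and 81.5 TPM in young and 142 and 141 TPM in senescent control. Its difference was 0.86 ± 0.25 (edgeR adjusted p = 0.372). P4HA1 footprints, at 144 and 144 TPM against 235 and 192 TPM, differed by 0.60 ± 0.25 (edgeR adjusted p = 0.601). Under heat shock none passed either (0.00886% called), and DESeq2 called 0 members. At an unadjusted p under 0.05 there were then 2 members, against 1463 of all genes. SERPINH1 footprints then differed by -0.62 ± 0.17 (edgeR adjusted p = 0.245). Over the mean of control and heat shock the fitted footprint differences of PLOD2, P4HA2 and PLOD1 were 0.55 ± 0.17, 0.47 ± 0.17 and 0.37 ± 0.15, and did not pass (edgeR adjusted p = 0.208, 0.273 and 0.288). No member passed in efficiency between senescent and young cells by edgeR or DESeq2. By edgeR 0.00896% of genes were called in control, 0% under heat shock and 0.0179% over the mean. Below an unadjusted p of 0.05 there were 0, 1 (CRTAP) and 0 members, against 88, 733 and 523 of all genes.

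Of the other 28 collagen maturation genes, 1 passed by edgeR between senescent and young cells. LOX, the lysyl oxidase that starts collagen cross-links, had footprints higher by 0.78 ± 0.14 over the mean of control and heat shock (log2; edgeR adjusted p = 0.0438), with an RNA difference of 0.48 ± 0.15 (edgeR adjusted p = 0.166). The footprint call was lost with the young control footprint libraries as 1 sample (0.286) and with 7 of the 8 libraries left out in turn. In RNA over the same mean the replicate block called 8 of the 26 genes tested, 5 higher (LOXL4, LOX, P4HB, P3H2 and LOXL2) and 3 lower (COLGALT2, PCOLCE and PCOLCE2), where 27.3% of all genes were called, and DESeq2 called 3. Of the hypoxia response genes NDRG1 alone passed by edgeR, with RNA higher by 1.13 ± 0.15 in senescent cells over the same mean (adjusted p = 0.0195, and up to 0.0883 with 1 library left out; lost in 6 of 8 cases); the block called 4 of 9 and DESeq2 2. Of the 8 fibroblast markers THY1, a surface glycoprotein, was higher in senescent RNA by 0.71 ± 0.12 (edgeR adjusted p = 0.0351), a call lost with 7 of the 8 libraries left out in turn (up to 0.159).

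Genes that overlap members on RefSeq's GRCh38.p14 annotation were P4HA2-AS1 and MIR6830 for P4HA2, PPME1, P4HA3-AS1 and a further RNA gene for P4HA3, SNX22 for PPIB and a non-coding RNA gene for BMP1. No source used here says whether the counting used strand, and without it reads of a gene and an antisense partner cannot be told apart.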

How the data were processed

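For 8 RNA-seq and 8 Ribo-seq libraries the authors deposited expected counts (whole numbers in the files) and TPM for each gene. Tools named by the submitters' processing notes are Bowtie2, RSEM and STAR, and the build is hg19; no source used here gives their roles or the annotation. Expected counts were filtered (filterByExpr), TMM scaled and tested with edgeR 4.0.16 (R 4.3.3) over all genes, 1 mean per group, with Benjamini-Hochberg adjusted p-values and a threshold of 0.05. Residual degrees of freedom were 4 in an assay and 8 in the joint fit for efficiency. All 10 members are named; of each other list, genes past the threshold by edgeR in RNA, footprints or efficiency, up to 6; COL1A1, COL1A2 and P4HB always; and the 5 genes most like SERPINH1 and PLOD2 (the footprint list of PLOD2 is not reported here). Beyond this rule, some items were chosen after their values were seen. They were the promoters of HSPA1A, DNAJB1 and HSPB1, COL5A2, and genes called by the block or DESeq2 but not by the main fit. Members and lists were chosen with earlier results of these data known. The procedure was tested on simulated data.

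Replicate 1 minus replicate 2 correlated between RNA groups at 0.55 to 0.724 (6 pairs of groups, across genes) and between Ribo groups at 0.227 to 0.321 in the 3 pairs without young control and at -0.0308 to -0.00692 in the 3 with it. Since not every Ribo pair was above 0.1, numbers were taken to pair RNA libraries only, from the data, since the labels do not say what they mark. The main RNA fit and the standard errors in the text do not use this pairing, and values with the block do. GC content was the median over GENCODE transcripts of a gene, matched by symbol for 99.4% of RNA and 99.8% of Ribo genes. Alternatives were other scalings, no filter, the block, DESeq2 1.42.0, limma 3.58.1 on log2(TPM + 1) and log2(TPM + 0.1), each library left out and, chosen after seeing the data, GC trend removal (lowess, span 0.3), young control footprints as 1 sample, and a joint filter.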

Additional observations from a re-analysis of the deposited data

How the results depend on the processing

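Counts are of the 10 members called, unless given over all genes. With the replicate number as a block, RNA calls were 5 in young heat shock, 5 in senescent heat shock, 2 for senescent against young under heat shock and 4 over the mean, and 2 in efficiency on senescent heat shock (CRTAP and PLOD3). In footprints, where the numbers were not taken to pair libraries, the block moved no count of members by more than 1.5 times, though it called PPIB on senescent heat shock (adjusted p = 0.0491). The block with the GC trend removed gave 5, 5, 1 and 3 in the same RNA comparisons, 2 in the mean footprint difference and 1 in senescent heat efficiency. Over all genes that setting called 1269, 761, 744 and 1953 in RNA, 289 in footprints and 883 in efficiency. Senescent heat RNA had 0 with library size only and with limma at either pseudocount. DESeq2 gave 1 in RNA under heat shock between the states, 1 over the mean and 1 in senescent heat efficiency. This efficiency count was also 1 with library size only, with no filter and with the GC trend removed. Over all genes those 3 settings called 325, 458 and 392. The mean footprint difference had 0 with library size only, with limma at either pseudocount and with young control footprints as 1 sample, and senescent heat footprints had 1 in the last. With each library left out in turn, counts ran from 0 to 1 in senescent heat RNA, from 1 to 3 in senescent heat footprints, from 0 to 1 in the mean footprint difference and from 0 to 1 in senescent heat efficiency. The cause of these differences was not tested. No member that was called changed direction under any alternative. Over all genes the block raised calls from 150 to 1156 and from 76 to 828 in RNA on heat shock in young and senescent cells, from 195 to 3602 for the mean RNA difference between the states, and in footprints from 130 to 330, 943 to 1667 and 99 to 210; in senescent heat efficiency it raised them from 271 to 1156. DESeq2 gave 445, 285 and 767 in the same RNA comparisons, 447, 1515 and 326 in footprints and 641 in efficiency. Young control footprints as 1 sample gave 27, 247 and 1 in footprints and 146 in efficiency. Precision is limited by 2 libraries a group. P4HA3 stood under 20 TPM in every library, and the part of this low level in its precision was not tested.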
